A study of Mus musculus with 6 samples.

Results

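This account covers 10 genes that are targets or feedback regulators of Wnt signalling: Axin2, Sp5, Nkd1, Nkd2, Lgr5, Ccnd1, Myc, Bambi, Tnfrsf19 and Sostdc1. They were chosen by symbol, and every probe set annotated to exactly 1 of these symbols was used, which gave 88 probe sets, between 4 and 22 for each gene. All 10 were measured, among 11280 genes on the array. RNA came from epidermal cells of the back skin of female mice, 9.5 weeks old, of the C57BL6/CBA background, described as unfractionated keratinocytes, although the extraction protocol also mentions fluorescence-activated sorting. The 3 wild type samples were compared with 3 samples from K14ΔNLef1 mice, each on its own exon array, and the labels name all 6 as biological replicates. The K14ΔNLef1 transgene is a Lef1 without its N-terminal part, which holds the β-catenin binding site, and the keratin 14 promoter drives it in basal keratinocytes and not in immune or dermal cells. Other details of the transgenic line are not given in the sources used here.

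In canonical Wnt signalling, stabilised β-catenin enters the nucleus, binds Lef1 or another Tcf factor on DNA and turns on target genes. Several targets feed back on the pathway: Axin2 promotes the breakdown of β-catenin, Nkd1 and Nkd2 bind Dishevelled, and the secreted protein Sostdc1 blocks Wnt receptors. In the skin this pathway controls hair follicle formation and growth, and Lef1 without its N-terminal part cannot be activated by β-catenin.

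Tcf and Lef factors bind DNA through a short core, so the 250 bases before the RefSeq start sites of the members were searched for CTTTGA and CTTTGT on both strands. RefSeq promoter sequences (GRCm38.p6) were matched for Axin2, Nkd1, Nkd2, Sp5 and Tnfrsf19, 5 of the 10 genes, in 6 windows because Tnfrsf19 has 2 start sites. Shown are the 2 windows with a match, of Sp5 and Tnfrsf19, and for comparison the window of Axin2, a widely used Wnt reporter gene that had none. Capitals mark the matches, and each sequence runs 5′ to 3′ on the strand of the gene.
Sp5, chr2:70474673-70474922, plus strand: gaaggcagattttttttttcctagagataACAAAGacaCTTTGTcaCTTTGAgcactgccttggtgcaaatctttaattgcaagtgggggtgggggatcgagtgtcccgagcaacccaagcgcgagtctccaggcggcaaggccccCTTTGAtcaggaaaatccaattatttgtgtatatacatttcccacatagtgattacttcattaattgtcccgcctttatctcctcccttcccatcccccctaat
Tnfrsf19, chr14:61037988-61038237, minus strand: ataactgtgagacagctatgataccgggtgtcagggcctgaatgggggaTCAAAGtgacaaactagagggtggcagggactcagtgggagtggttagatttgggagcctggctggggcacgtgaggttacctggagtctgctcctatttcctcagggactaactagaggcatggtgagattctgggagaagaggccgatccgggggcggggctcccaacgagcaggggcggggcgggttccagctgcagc
Axin2, chr11:108920099-108920348, plus strand: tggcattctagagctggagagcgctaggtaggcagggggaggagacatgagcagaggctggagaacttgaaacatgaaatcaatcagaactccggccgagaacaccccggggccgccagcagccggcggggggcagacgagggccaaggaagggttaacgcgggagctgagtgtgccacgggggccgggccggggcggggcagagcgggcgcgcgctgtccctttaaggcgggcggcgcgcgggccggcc
Sp5 had 4 matches, of which 3 lie between 221 and 199 bases before the start site and 1 between 104 and 99 bases before it. At least 1 match stood in 27.6% of all 32851 windows of this length, and 4 or more in 0.0944%. The windows differ in base composition, with 46.0% G and C for Sp5 and 69.2% for Axin2, against a median of 52.4% for all windows. The share of windows of like composition with a match was not computed. The longer form CTTTGATC occurred once in the Sp5 window and once, on the other strand, in the Tnfrsf19 window, against 0.801% of all windows. The Axin2 window had none, as had those of Nkd1, Nkd2 and the other Tnfrsf19 start site. Such a match is a description of the letters and not a measured binding site.

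The arrays and labels were checked first. The median intensity of an array ranged from 190.2 to 199.8 for wild type, and for K14ΔNLef1 replicates 1, 2 and 3 it was 154.2, 190.0 and 203.2. Replicate 1 of K14ΔNLef1 stood apart, with correlations over genes of 0.881 to 0.908 with the other arrays, which correlated at 0.939 to 0.971 among themselves. Lef1, which the transgene supplies, was higher in all 3 transgenic samples, by 4.80 on the log2 scale (SE 0.29, limma adjusted p of 4.02e-04). Of 14 keratinocyte markers 12 were measured, with mean log2 intensities over the 6 arrays from 9.26 for Itgb4 to 12.95 for Krt14. Every value below is the mean log2 intensity of the probe sets of a gene, and each difference is K14ΔNLef1 minus wild type on that scale, where a difference of 1 is a change of 2-fold. The median difference of all genes was -0.054, and 0.055 when all arrays were shifted to a common median.

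Of the 10 genes 1 passed the test, Sostdc1, which fell in the transgenic epidermis (limma, Benjamini-Hochberg adjusted p at or under 0.05 over all genes). No member passed in the other direction. Of all 11280 genes, 0.833% passed as lower and 0.328% as higher, which is 94 and 37 genes, or 133 and 103 with a common median and 112 and 89 after quantile normalization. The 2 genes with the next largest differences, Ccnd1 and Axin2, had no overlap between genotypes and lay lower in all 3 transgenic samples, but did not pass. These 3 of 10 compare with 11.8% of all genes that were lower without overlap. The same 3 had an unadjusted limma p under 0.05, against 7.58% of all genes in that direction. Because the members were chosen with earlier results of these data known, these shares are a description and not a test. The other 7 members had differences from -0.37 to 0.09, and the 95% intervals of all 7 lay inside a 2-fold change in either direction. So did the intervals of 8395 of all 11280 genes. The median difference of the 10 was -0.096, with 5 members lower and 5 higher, where 57.2% of all genes were lower by any amount. The labels do not say whether samples were single animals or pools, so p-values measure the spread between these samples.

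**Figure D1:**
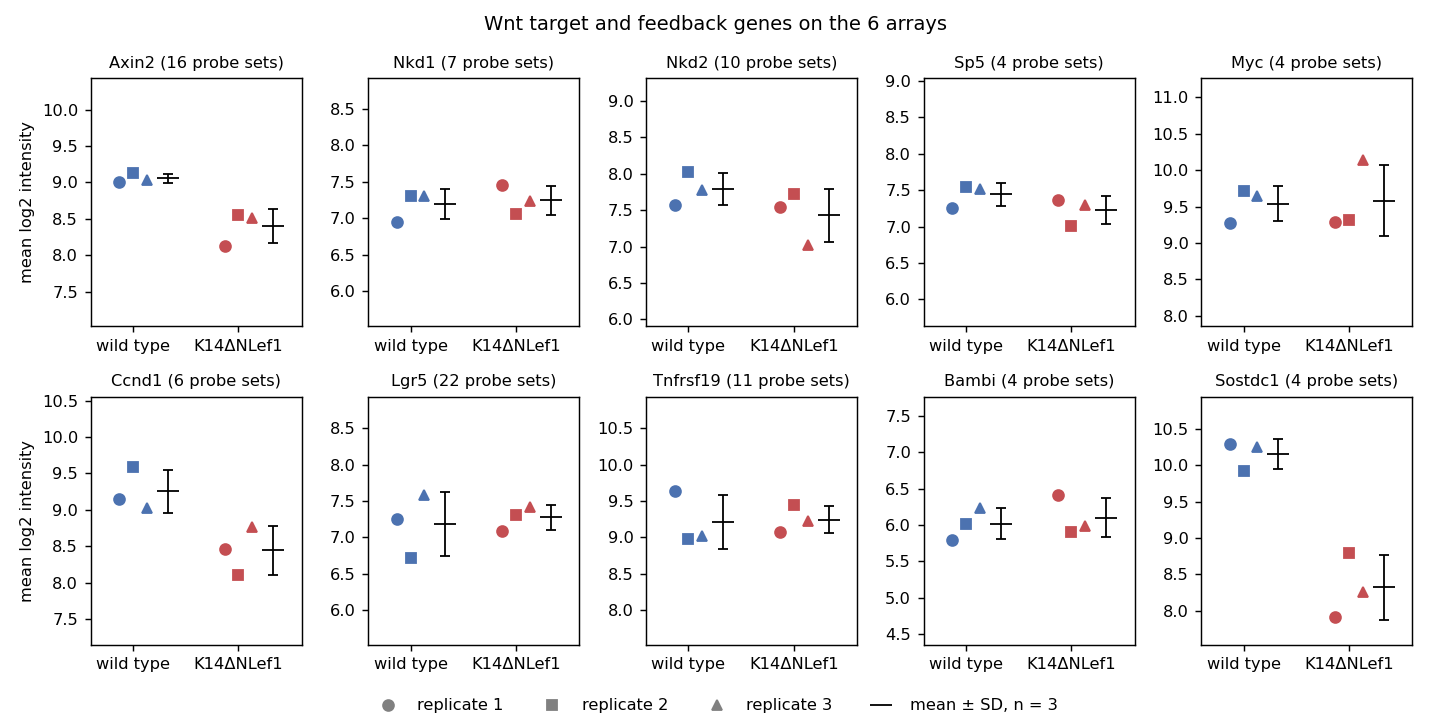
Mean log2 intensity of each of the 10 genes on the 6 arrays (symbols, replicates 1 to 3 of each genotype), with the mean and SD beside each group of n = 3; every panel spans the same range of log2 units. Sostdc1, Axin2 and Ccnd1 have no overlap between wild type and K14ΔNLef1, and the other 7 genes overlap.

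Among the intracellular inhibitors, Axin2 was lower and its 2 functional relatives were not separated by genotype. Axin2, a scaffold of the complex that degrades β-catenin, had 9.01, 9.13 and 9.04 in wild type replicates 1, 2 and 3 and 8.13, 8.55 and 8.51 in K14ΔNLef1. The wild type values lie within a narrow band and all 3 transgenic values lie under it. Its difference was -0.67 (SE 0.18, 95% interval -1.09 to -0.24), a level 1.59-fold lower on the linear scale, with a limma adjusted p of 0.186. Without K14ΔNLef1 replicate 1, the lowest sample, the difference was -0.53 (adjusted p of 0.114).

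Nkd1, a Dishevelled-binding inhibitor of Wnt signals, had 6.95, 7.31 and 7.31 in wild type and 7.45, 7.05 and 7.24 in K14ΔNLef1. The groups overlap, and the difference of 0.06 (95% interval -0.39 to 0.51) had an adjusted p of 0.936. Nkd2, its close relative, had 7.57, 8.02 and 7.78 in wild type and 7.54, 7.72 and 7.02 in K14ΔNLef1. The lowest value was that of K14ΔNLef1 replicate 3, while replicate 2 lay inside the wild type range. The Nkd2 difference was -0.37 (95% interval -0.90 to 0.17, adjusted p of 0.61), and it was 0.20 when only the brighter probe sets were used, 3 of 10 for this gene.

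Sp5 and Myc are transcription factors and Ccnd1 is a cell cycle target, and none of these genes passed the test. Sp5, a zinc finger factor and direct Wnt target, had 7.26, 7.55 and 7.52 in wild type and 7.37, 7.01 and 7.30 in K14ΔNLef1. Its groups overlap, with a difference of -0.22 (95% interval -0.65 to 0.21, adjusted p of 0.707). Its promoter window is printed above, and a link between the 4 core matches there and this value was not tested. Myc, a growth regulator that many signals besides Wnt control, had 9.27, 9.71 and 9.64 in wild type and 9.29, 9.31 and 10.14 in K14ΔNLef1. Here K14ΔNLef1 replicate 3 was the highest of the 6 samples and the other two lay near the low end of the wild type range. The Myc difference of 0.04 (95% interval -0.58 to 0.66, adjusted p of 0.972) was -0.24 without that sample.

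Ccnd1, which encodes cyclin D1 of the step from G1 to S phase, had 9.15, 9.59 and 9.03 in wild type and 8.46, 8.10 and 8.77 in K14ΔNLef1. All transgenic values lie below all wild type values, and the gap between the nearest samples is small. The difference was -0.81 (SE 0.24, 95% interval -1.36 to -0.26), a level 1.76-fold lower, with an adjusted p of 0.214. In the deposited values, the order of the transgenic samples was not that of Axin2. Ccnd1 was lowest in replicate 2 and Axin2 in replicate 1.

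The 3 membrane proteins were not separated by genotype. Lgr5, the R-spondin receptor that marks stem cells of the lower bulge and hair germ, had 7.25, 6.72 and 7.58 in wild type and 7.09, 7.31 and 7.42 in K14ΔNLef1. Wild type held both the lowest and the highest value, and the difference was 0.09 (95% interval -0.47 to 0.66, adjusted p of 0.918). Tnfrsf19, also called Troy, a receptor of the tumour necrosis factor family and Wnt target, had 9.64, 8.98 and 9.02 in wild type and 9.07, 9.44 and 9.23 in K14ΔNLef1. All 3 transgenic values lie between the wild type ones, with a difference of 0.03 (95% interval -0.50 to 0.55, adjusted p of 0.976).

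Bambi, a membrane pseudoreceptor that dampens BMP and TGF-beta signals, had 5.80, 6.02 and 6.23 in wild type and 6.41, 5.91 and 5.98 in K14ΔNLef1. The groups overlap, and the difference was 0.08 (95% interval -0.40 to 0.57, adjusted p of 0.912). It was the 1 member of 10 in the dimmest 25% of genes, and 9 members passed a filter that leaves those genes out.

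**Figure D2:**
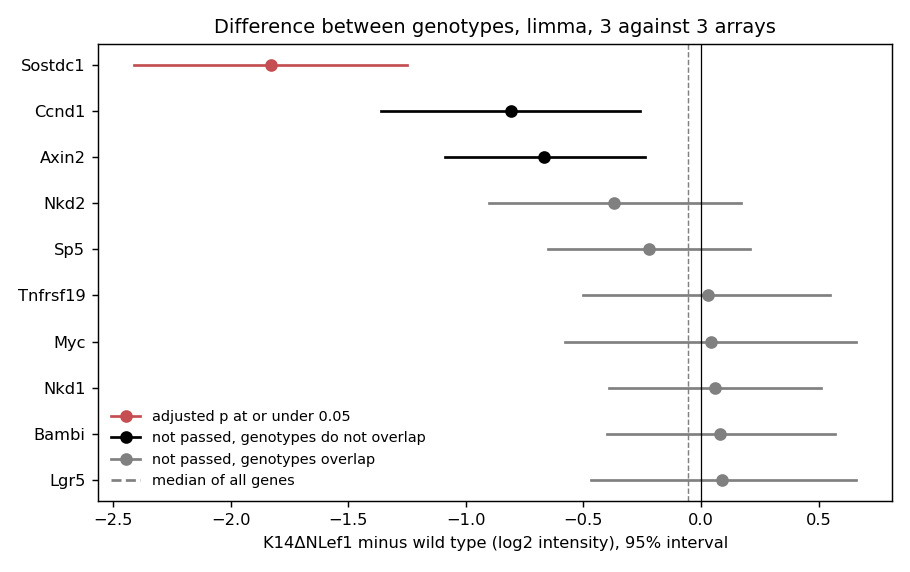
Difference K14ΔNLef1 minus wild type in log2 intensity (point) with its 95% interval from limma (line) for each gene, 3 arrays against 3; the dashed line is the median of all genes, -0.054. Sostdc1 at -1.83 passed, Ccnd1 and Axin2 have intervals below 0 without passing over all genes, and the other 7 intervals include 0.

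Sostdc1, a secreted inhibitor of both BMP and Wnt signals that is also called Wise or ectodin, had 10.29, 9.92 and 10.25 in wild type and 7.91, 8.79 and 8.26 in K14ΔNLef1. The lowest wild type sample stood well above the highest transgenic one, and K14ΔNLef1 replicate 1 was lowest. The means were 10.15 ± 0.21 and 8.32 ± 0.45 (SD, n = 3 each). The gene fell by 1.83 (SE 0.25, 95% interval -2.41 to -1.25), or 3.57-fold, with a limma adjusted p of 0.017. Relative to the median of all genes the difference was -1.78. It was -1.63 without K14ΔNLef1 replicate 1 (adjusted p of 0.019, in a fit where 2.12% of all genes passed) and -2.07 without replicate 2 (adjusted p of 0.0159). Leaving out wild type replicate 1, 2 or 3 or K14ΔNLef1 replicate 3 gave -1.76, -1.95, -1.79 and -1.80, with adjusted p of 0.0891, 0.0666, 0.0978 and 0.0591, so it passed in 2 of these 6 fits.

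Genes with the most similar pattern to Sostdc1 were sought among 8979 genes with at least 4 probe sets, by the root mean square difference over the 6 arrays after the wild type mean of each gene was subtracted. The closest was Ntrk2, a receptor for neurotrophins, at 0.161 log2 units, with 8.16, 8.22 and 8.15 in wild type and 5.94, 6.95 and 6.44 in K14ΔNLef1. Next came Krt77, a suprabasal keratin, at 0.217, and Susd2, a membrane protein, at 0.218. All 3 passed as lower, and the likeness is a description over the 6 samples from which they were picked.

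The levels of cell type markers were set beside these values. Keratinocyte markers summed to intensities of 39863 to 42702 in wild type and 28913 to 38555 in K14ΔNLef1. Of these markers 11 of 12 were lower, 5 of 12 lower without overlap, against 11.8% of all genes, and none passed. Against its wild type mean, the keratinocyte list averaged -0.62, -0.30 and -0.11 in K14ΔNLef1 replicates 1, 2 and 3. Sostdc1 stood at -2.25, -1.36 and -1.89 against its own. Upper follicle and sebaceous gland markers, with 8 of 10 lower and none passing, summed to 4620 to 5457 and 3133 to 6388, and bulge and hair germ markers, with 6 of 12 lower and none passing, to 10302 to 10522 and 8458 to 10893. Hair shaft and inner root sheath markers, with 6 of 14 lower, summed to 3762 to 3886 in wild type and 2165 to 2480 in K14ΔNLef1, and 1 of them passed, Gata3, as lower, by -1.35 (limma adjusted p of 0.0181). Gata3 was the brightest gene of that list, and the other 13, of which 5 were lower and 8 higher, summed to 1166 to 1213 in wild type and 1282 to 1325 in K14ΔNLef1.

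Fibroblast and dermal papilla markers, with 13 of 17 higher and 4 lower, summed to 4586 to 5437 in wild type and 4707 to 7507 in K14ΔNLef1. Postn was the brightest gene of the list, and the largest rises were 0.92 for Sparc, 0.86 for Vim and 0.67 for Thy1. Col1a1, Col1a2 and Col3a1 differed by 0.14, 0.16 and 0.13. Of the 17 markers 1 passed, as lower, Rspo3, which encodes a secreted R-spondin that strengthens Wnt signals. Rspo3 had 8.02, 7.90 and 8.68 in wild type and 5.98, 5.13 and 5.56 in K14ΔNLef1. Its difference was -2.64 (SE 0.29, limma adjusted p of 0.00722). Gata3, Rspo3 and the other single markers were named after their values were seen. No marker of the next 3 lists passed. Melanocyte markers, with 8 of 11 higher and 4 of these without overlap, summed to 1291 to 1484 and 1435 to 1989. Of all 11280 genes, 779 were higher without overlap. Endothelial and mural cell markers, with 10 of 13 higher, summed to 968 to 1027 and 987 to 1251. Macrophage and neutrophil markers, with 8 of 12 higher, summed to 892 to 952 and 1011 to 1745. Of this last list, S100a8 had 5.44, 5.06 and 9.14 in K14ΔNLef1 replicates 1, 2 and 3, and S100a9 had 6.29, 5.03 and 8.44. The upper end of that sum thus leans on replicate 3. Krt15 stands in both the keratinocyte and the bulge list, and Postn in both the bulge and the fibroblast list.

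T cell markers, with 11 of 12 higher and none passing, summed to 2528 to 4008 in wild type and 2708 to 8655 in K14ΔNLef1. Markers of Langerhans and antigen presenting cells, with 13 of 15 higher and none passing, summed to 4197 to 5759 and 3614 to 11636. Against wild type, the T cell list averaged -0.10, 1.29 and 0.81 in K14ΔNLef1 replicates 1, 2 and 3. In the deposited values, Sostdc1 and Axin2 had the same order of these 3 samples, lowest in replicate 1 and highest in replicate 2. Ccnd1 had another, lowest in replicate 2. With a common median or quantile normalization, replicate 3 was lowest for Sostdc1 (8.15 and 8.14) and for Axin2 (8.39 and 8.38). Replicate 1 then had 8.19 and 8.24 for Sostdc1 and 8.41 and 8.46 for Axin2. In these mixed cell samples, fewer cells of a type and less RNA per cell cannot be told apart. The part of these cell types in the differences of the 10 genes was not tested.

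Whether a difference is shared by the probe sets of a gene was examined next, without regard to their position in the gene. All 4 Sostdc1 probe sets were lower without overlap, by -2.04 to -1.62. All 16 Axin2 probe sets were lower, by -1.52 to -0.04, and all 6 Ccnd1 probe sets, by -1.46 to -0.04. These signs are those of the deposited values. With a common median the Axin2 gene value moved from -0.67 to -0.56, a shift larger than the smallest of these differences, -0.04. Without overlap were 9 of the 16 for Axin2 and 4 of the 6 for Ccnd1, and of all probe sets on the array 57.5% were lower by any amount and 9.4% lower without overlap. In the other direction 5 member probe sets had no overlap, 3 of Lgr5 and 2 of Tnfrsf19, against 5.13% of all probe sets. No member probe set passed the limma test over all 114330 probe sets (smallest adjusted p of 0.0767, for Sostdc1), where 0.174% passed. At an unadjusted p under 0.05 there were 17 of the 88, all lower: 8 of Axin2, 4 of Sostdc1, 3 of Ccnd1 and 1 each of Nkd2 and Sp5. Of all probe sets 5.31% were lower at that level. Probe sets of a gene come from the same 6 samples and are not independent replicates.

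Probe sets were also counted on single arrays. The share of all probe sets in these positions was not computed, so the counts have no background beside them. K14ΔNLef1 replicate 1 had the lowest median intensity, 154.2. Of the 16 Axin2 probe sets, 13, 11 and 14 lay below the lowest wild type value on K14ΔNLef1 replicates 1, 2 and 3. For Ccnd1 the counts were 5, 6 and 4 of 6, and for Sostdc1 4 of 4 on each array. Myc, by contrast, had all 4 probe sets above the highest wild type value on K14ΔNLef1 replicate 3 and 2 of 4 below the lowest on each of the other transgenic arrays. For Nkd1, 6 of 7 were above the highest wild type value on replicate 1 alone, against 1 and 2 on replicates 2 and 3.

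**Figure D3:**
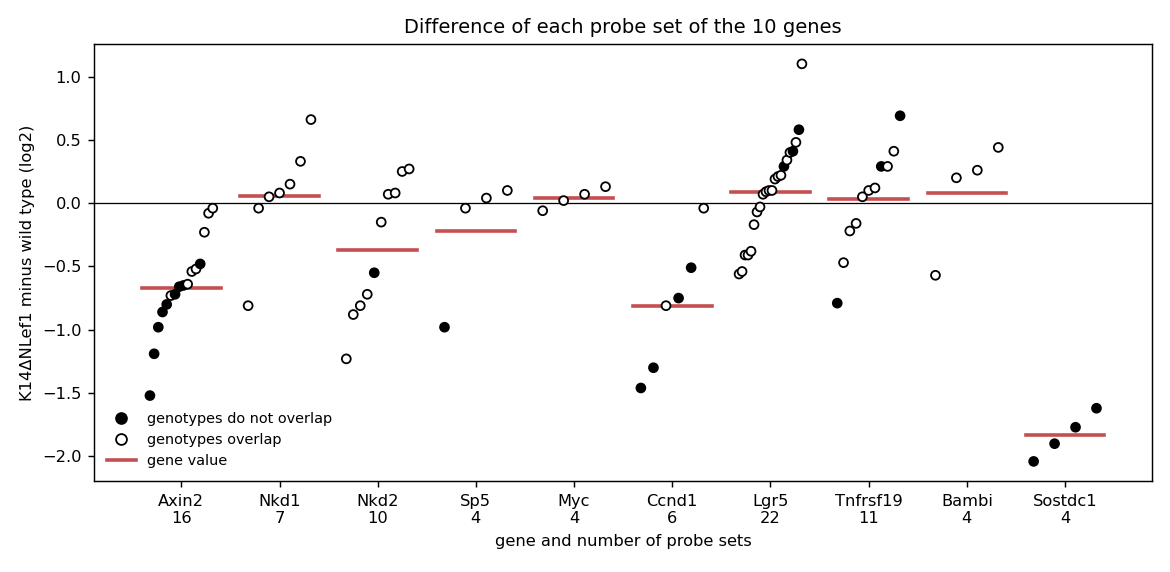
Difference K14ΔNLef1 minus wild type in log2 intensity for each of the 88 probe sets, ordered within each gene, with the gene value as a bar; filled points have no overlap between genotypes. In the deposited values all probe sets of Sostdc1, Axin2 and Ccnd1 lie below 0, while those of the other genes lie on both sides.

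No member passed a test for unequal change along the transcript, in which 0.754% of the 9818 genes with at least 3 probe sets passed (limma diffSplice, F test). No member had an unadjusted p under 0.05 in that test, against 5.87% of those genes, and none passed its Simes version, in which 1.3% did. The smallest unadjusted p values were 0.0812 for Sp5 and 0.127 for Axin2. Among the Sp5 probe sets, 5603560 had 5.75, 6.24 and 5.61 in wild type and 4.49, 4.76 and 5.43 in K14ΔNLef1, a difference of -0.98, and the other 3 differed by -0.04 to 0.10. In Axin2, probe set 4554807 had 9.99, 10.19 and 9.45 in wild type and 8.08, 8.49 and 8.50 in K14ΔNLef1, a difference of -1.52. At the other end, Axin2 probe set 4940280 had 6.02, 6.36 and 6.96 against 6.79, 5.98 and 6.44, a difference of -0.04. Where these probe sets lie in their genes was not analysed here.

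The directions for Sostdc1, Axin2, Ccnd1, Nkd2 and Sp5 were the same in all 6 fits with 1 array left out. The Axin2 difference ranged from -0.74 to -0.53 (adjusted p of 0.114 to 0.525) and the Ccnd1 difference from -0.98 to -0.64 (adjusted p of 0.165 to 0.565). For Lgr5, Myc, Nkd1, Tnfrsf19 and Bambi the sign changed in 1 to 3 of the 6 fits. After quantile normalization the groups of Sostdc1, Axin2 and Ccnd1 again had no overlap, with differences of -1.68, -0.51 and -0.66. When arrays were weighted by their estimated quality, K14ΔNLef1 replicates 1, 2 and 3 had weights of 0.15, 5.18 and 0.61. In that fit 11.5% of all genes passed. Axin2 and Ccnd1 passed too, as lower, by -0.52 and -1.06 (limma adjusted p of 0.0213 and 0.00882). The transgenic mean there rests mostly on replicate 2, which stood at -0.51 for Axin2 and -1.15 for Ccnd1 against the wild type mean.

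**Figure D4:**
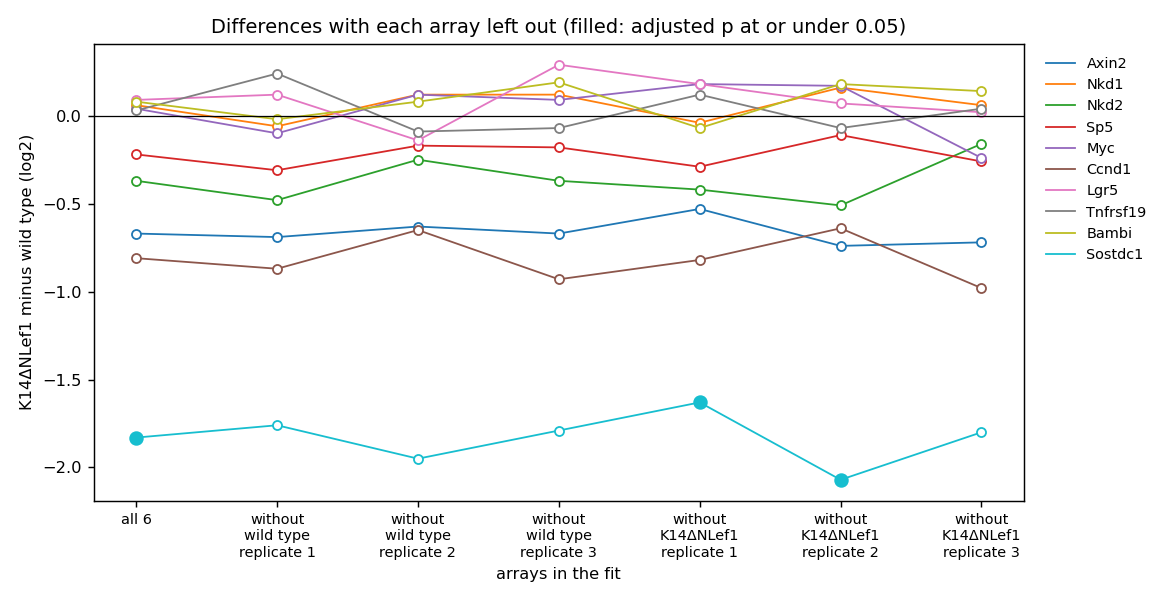
Difference K14ΔNLef1 minus wild type in log2 intensity for each gene (lines) in the fit with all 6 arrays and in the 6 fits with 1 array left out; filled points passed at an adjusted p at or under 0.05. Sostdc1 stays between -2.07 and -1.63 and is filled without K14ΔNLef1 replicate 1 or 2, and no other gene is filled.

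Beyond the 10 genes, most other targets and feedback genes of the pathway did not pass. Of 34 measured, 33 did not pass and 1 fell, Ascl2, a basic helix-loop-helix factor and Wnt target of intestinal stem cells, read here by 2 probe sets. It had 7.72, 7.99 and 8.43 in wild type and 6.24, 5.88 and 5.40 in K14ΔNLef1. The groups were far apart, and the gene fell by 2.20 (SE 0.27, limma adjusted p of 0.0118). With 1 array left out its adjusted p was 0.00901 to 0.0664, and it missed the threshold without wild type replicate 2 or 3. The median difference of the 34 was 0.135, with 21 higher and 13 lower. Of these, 9 had an unadjusted limma p under 0.05 in either direction, against 11.8% of all genes. Without overlap were 6 higher and 6 lower genes of the 34, against 779 and 1334 of all 11280 genes. With a common median or quantile normalization, where 2.09% and 1.78% of all genes passed, 2 of these genes passed as higher, Wif1, a secreted Wnt inhibitor, by 1.27 or 1.25, and Edn1, endothelin 1, by 1.54 or 1.53, both named after their values were seen.

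Of 31 measured genes of Wnt signal transduction, 1 rose, Lef1 itself, and 30 did not pass, with a median difference of -0.03 and 4 at an unadjusted p under 0.05. Among 23 cell cycle and mitosis genes, which span more than the G1 to S step of Ccnd1, none passed. Of these, 6 had an unadjusted limma p under 0.05, in either direction as in the 11.8% of all genes above. With a median of 0.257, 16 of 23 were higher and 7 lower. The lower ones were Mcm2, Mcm3, Mcm5, Mcm6, Cdc6, Ccne2 and Ccnd2, by -0.66 to -0.04, listed after their values were seen. Separate steps of the cycle were not tested. The 2 genes of the list with the smallest limma p were Cdc6, which loads the replicative helicase, with -0.66 (adjusted p of 0.19), and the mitotic kinase gene Aurka, with 0.83 (adjusted p of 0.219). Without K14ΔNLef1 replicate 1, Ccna2 and Kif11 passed as higher (adjusted p of 0.0289 and 0.0417), also named after their values were seen.

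**Figure D5:**
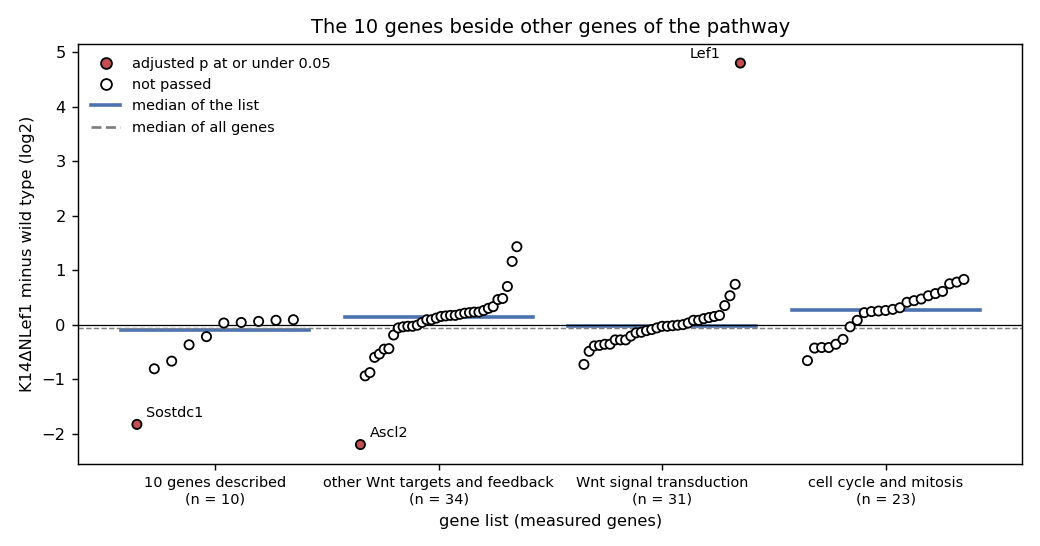
Difference K14ΔNLef1 minus wild type in log2 intensity for the 10 genes and for the measured genes of 3 other lists (points), with the median of each list (bar) and of all genes (dashed line). Filled points passed at an adjusted p at or under 0.05: Sostdc1, Ascl2 and Lef1.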

How the data were processed

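Expression was read on 6 exon arrays, 3 for each genotype, as linear intensity values for 114330 probe sets, as deposited. Per the submitters' processing notes, the deposited intensity values were made with RMA, the mm9 build and Affymetrix Power Tools; versions and filters are not given in the sources used here. Intensities were first converted to log2. Probe sets with exactly 1 symbol in the platform annotation (109751) were used, with older symbols updated through the GRCm38.p6 gene table (1228), which held 11245 of the 11280 genes. A gene's value is the mean of its probe sets. The number of arrays limits the precision.

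Genotypes were compared with limma 3.58.1 (R 4.3.3; lmFit and eBayes, two-sided) on all genes with no filter, and on all probe sets, adjusted by Benjamini-Hochberg with 0.05 as threshold; diffSplice tested unequal change in genes with at least 3 probe sets. The scripts were tested on simulated data. Named genes are the 10 members, Lef1, the 3 genes closest to the member with the smallest p, and from each pathway list up to 3 that passed or, where none did, the 2 with the smallest p. Members and lists were chosen with earlier results of these data known. Alternatives were the median of probe sets, brighter probe sets, a filter on dim genes, 2 scalings, other variance settings, 2 blocks and each array left out.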

Additional observations from a re-analysis of the deposited data

How the results depend on the processing

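Sostdc1 was lower in every fit run, by -2.07 to -1.45, and Axin2 and Ccnd1 were lower in every fit too. Ccnd1 was at -0.60 with the median of probe sets, with an unadjusted limma p of 0.0894 and an adjusted p of 0.55. The number of members that passed was 1 with all arrays, 3 with array weights, and 0 to 1 with 1 array left out. Array weights rest the transgenic mean mostly on K14ΔNLef1 replicate 2. With the replicate number of the titles as a block it was 0 (Sostdc1 limma adjusted p of 0.0552). Same-numbered samples correlated at -0.163, -0.172 and 0.036 in their deviations from the group means. Samples with adjacent description numbers correlated at 0.199, -0.075 and -0.007. Deviations within a group of 3 sum to 0, so these values cannot tell whether samples were paired. Over all genes, 37 passed as higher and 94 as lower. With a common median they were 103 and 133, by quantile normalization 89 and 112, 598 and 698 with array weights, 26 and 49 with the replicate block, 30 and 61 with a block of samples whose description numbers are adjacent, and 8 to 115 and 18 to 124 with 1 array left out. Of other Wnt targets, 0 passed as higher and 1 as lower, against 2 higher with either scaling, 5 and 4 with array weights, and 0 to 1 each with 1 array left out. Array weights also gave 2 higher and 1 lower gene of Wnt signal transduction and 8 higher and 1 lower cell cycle gene, and cell cycle genes that passed as higher were 0 to 2 with 1 array left out. The causes were not tested. Differences near 0 changed sign. With the median of probe sets Nkd1 was at -0.05 and Bambi at -0.10. With brighter probe sets Nkd1 was at -0.13, Lgr5 at -0.08, Nkd2 at 0.20 and Sp5 at 0.07. With array weights Nkd1 was at -0.10, Myc at -0.14 and Bambi at -0.09. With 1 array left out the ranges were -0.06 to 0.16 for Nkd1, -0.24 to 0.18 for Myc, -0.14 to 0.29 for Lgr5, -0.09 to 0.24 for Tnfrsf19 and -0.07 to 0.19 for Bambi. Without K14ΔNLef1 replicate 1 and with the rest quantile normalized, chosen after seeing the data, Nkd1 was at -0.06 and Bambi at -0.12. No member passed per probe set or for unequal change in any alternative run. Signal over background was not analysed here, since the table holds no detection values.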
